A study of Mus musculus with 16 samples.

Results

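The genes described here are 38 mouse genes of hepatic stellate cells and liver fibrosis: collagens, other matrix proteins, enzymes that crosslink or degrade matrix, and markers of stellate cells, together with Ltbp4. They were chosen by name, with earlier results of these data known. All 38 were found in both deposited count tables, which hold 26296 gene identifiers between them. By role they are 5 fibril-forming collagens, 4 basement membrane and other collagens, 8 matrix glycoproteins and proteoglycans, 3 crosslinking enzymes, 5 metalloproteinases and inhibitors, 2 genes of the TGF-beta system, 4 contractile and filament proteins, and 7 stellate cell receptors, factors and markers. The study asked how loss of matrin-3, a nuclear RNA- and DNA-binding protein encoded by Matr3, in the liver alters its transcripts in mice on a high-fat diet. Livers of 4 groups were sequenced, with 4 mice in each: female LKO (liver-specific knockout), female floxed, male LKO and male floxed mice. LKO mice carried floxed Matr3 and Cre recombinase under the albumin promoter, and the floxed mice, littermates per the labels, carried the floxed gene. Male floxed 1 and 2 have mouse numbers apart from those of the other males, and whether they come from the same litters is not stated. Mice of every group ate a diet with 60 kcal% fat from 7 weeks of age for 16 weeks and were fasted for 12 hours before the liver was taken. The albumin promoter is active in hepatocytes, whereas most of the 38 genes are transcribed mainly in other liver cells, so the RNA of a whole liver mixes the cells that express Cre with cells that do not.

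Stellate cells lie between hepatocytes and the sinusoidal endothelium, where they store vitamin A as retinyl esters. In an injured liver they take on a contractile, matrix-secreting state, driven by TGF-beta and platelet-derived growth factor, and lay down fibrillar collagens types I and III. Collagen fibrils are crosslinked outside the cell by the lysyl oxidase family and are degraded by matrix metalloproteinases, which tissue inhibitors of metalloproteinases (TIMPs) restrain. TGF-beta is secreted in a latent form bound to LTBP proteins, which anchor it in the matrix.

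Counts over all genes summed to 30495505 in the smallest of the 16 libraries and 36496193 in the largest. Levels are given as CPM, a gene's counts relative to the library total after scaling all libraries together, and libraries are named by the replicate number in the sample titles, 5 to 8 for LKO and 1 to 4 for floxed mice of each sex. Values of a group follow that numbering. Matr3 was at 39.8, 36.6, 37.6 and 38.3 CPM in LKO females against 52.4, 64.0, 56.2 and 59.9 CPM in floxed females. It was at 34.0, 36.9, 36.6 and 34.3 CPM in LKO males against 55.9, 53.6, 61.7 and 60.1 CPM in floxed males. All 8 LKO libraries thus lay below all 8 floxed libraries, at 65.5% of the floxed mean in females (log2 -0.61, SE 0.08, adjusted p by edgeR 0.00437) and 61.3% in males (log2 -0.71, SE 0.06, adjusted p by edgeR 0.000807). The counts cover the whole gene and not only the deleted part, and the deleted exons are not given in the labels. Hepatocyte transcripts were abundant in every library, and the 7 stellate cell receptors, factors and markers were detected in every library, the least of them, Lhx2, with at least 100 counts. On the first principal component of the female livers, LKO 7 and floxed 4 lay nearest to the other genotype, at 6.99 and -6.01, whereas the other LKO livers lay at 22.4 to 27.8 and the other floxed livers at -27.3 to -23.3. On that of the male livers, LKO lay at 7.92 to 13.07 and floxed at -12.1 to -5.765; it held 27.4% of the variance, against 65.1% in females.

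Promoter sequences are printed for 5 members: Ltbp4, Timp3 and Lrat, because the knockout effect on them differed between the sexes, and Col4a1 and Col4a2, because these neighbours are transcribed away from each other and did not behave alike. Each line gives the 250 bases before the RefSeq start site on build GRCm38.p6, 5′ to 3′ on the strand of the gene, with capitals marking matches to CCAAT or GGGCGG on either strand (ATTGG and CCGCCC on the other). Ltbp4 lies at chr7:27337613-27337862 (minus strand, the most upstream of its 3 listed starts), Timp3 at chr10:86300162-86300411 (plus strand), Lrat at chr3:82903975-82904224 (minus strand), Col4a1 at chr8:11312827-11313076 (minus strand) and Col4a2 at chr8:11312555-11312804 (plus strand).
Ltbp4: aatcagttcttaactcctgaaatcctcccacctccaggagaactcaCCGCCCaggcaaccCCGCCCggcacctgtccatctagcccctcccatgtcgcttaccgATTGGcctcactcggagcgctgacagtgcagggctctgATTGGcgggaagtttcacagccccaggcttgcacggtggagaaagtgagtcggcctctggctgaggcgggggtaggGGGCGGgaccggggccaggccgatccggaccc
Timp3: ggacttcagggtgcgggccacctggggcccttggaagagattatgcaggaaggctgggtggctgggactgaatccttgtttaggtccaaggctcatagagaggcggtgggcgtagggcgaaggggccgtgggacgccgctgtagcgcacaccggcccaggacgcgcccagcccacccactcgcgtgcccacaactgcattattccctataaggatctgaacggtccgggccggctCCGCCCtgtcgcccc
Lrat: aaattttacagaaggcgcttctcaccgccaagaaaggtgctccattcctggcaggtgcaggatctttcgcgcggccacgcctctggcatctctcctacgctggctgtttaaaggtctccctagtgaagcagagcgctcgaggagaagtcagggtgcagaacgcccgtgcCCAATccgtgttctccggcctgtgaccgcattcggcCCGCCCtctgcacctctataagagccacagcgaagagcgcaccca
Col4a1: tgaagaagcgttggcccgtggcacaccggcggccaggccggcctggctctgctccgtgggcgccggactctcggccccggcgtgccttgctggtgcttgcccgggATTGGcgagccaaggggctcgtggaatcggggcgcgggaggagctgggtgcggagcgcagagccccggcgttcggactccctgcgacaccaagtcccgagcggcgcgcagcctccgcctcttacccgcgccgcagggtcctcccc
Col4a2: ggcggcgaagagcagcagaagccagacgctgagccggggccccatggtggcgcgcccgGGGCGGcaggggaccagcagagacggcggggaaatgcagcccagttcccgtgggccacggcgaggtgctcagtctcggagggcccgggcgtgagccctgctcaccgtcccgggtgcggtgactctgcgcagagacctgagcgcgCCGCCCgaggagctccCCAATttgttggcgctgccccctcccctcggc
The Col4a1 and Col4a2 starts are 21 bases apart and point in opposite directions, so each window reaches into the other gene. GC content of these windows was 64.4% for Ltbp4, 65.6% for Timp3, 59.2% for Lrat, 74.4% for Col4a1 and 73.6% for Col4a2, against a median of 52.4% over 32851 promoter windows. Promoter entries existed for 25 of the 38 members. CCAAT was found in 10 of these 25, against 33.8% of all windows, GGGCGG in 17 of 25 against 32.7%, and TATAAA in 3 of 25 against 12.4%. A member was counted when any of its listed windows matched, while the percentages are per window, so the units differ. Ltbp4 held 2 CCAAT and 3 GGGCGG matches, Timp3 held 1 GGGCGG match, Lrat held 1 of each, Col4a1 held 1 CCAAT match, and Col4a2 held 1 CCAAT and 2 GGGCGG matches. A match of letters describes the window and does not show that a factor binds there.

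In LKO females 7 members fell and 2 rose against floxed females. Ltbp4, Timp3, Loxl1, Mmp2, Lrat, Reln and Col14a1 fell, by 1.42 to 2.15 fold, while Fn1 and Mmp14 rose, by 1.33 and 1.45 fold. The test was edgeR's quasi-likelihood F-test on the counts of the 8 female libraries, with p-values adjusted over all 15432 genes tested and called under 0.05. It called 9 of the 36 members tested, and 9.29% of all genes were called in the same comparison (4.85% lower and 4.44% higher). Lox and Timp1 had too few counts in females to be tested. The median log2 fold change was -0.29 over the 36 members and 0.00 over all genes, and 31 of the 36 had a value below 0. In 10 of the 38 members every LKO female lay below every floxed female, a pattern shown by 7.91% of all genes, and in 2 every LKO female lay above, shown by 8.04% of all genes. The members were chosen with earlier results of these data known, so these shares do not test the set. Without LKO 5 or LKO 8, 5 members were called, and without floxed 1 or floxed 2, 4 were called (Col14a1, Ltbp4, Reln and Timp3). Over all genes those fits called 509, 685, 396 and 475 in that order, against 1433 in the main fit. In RNA of a whole liver, fewer cells of a type and less RNA per cell cannot be told apart.

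**Figure D1:**
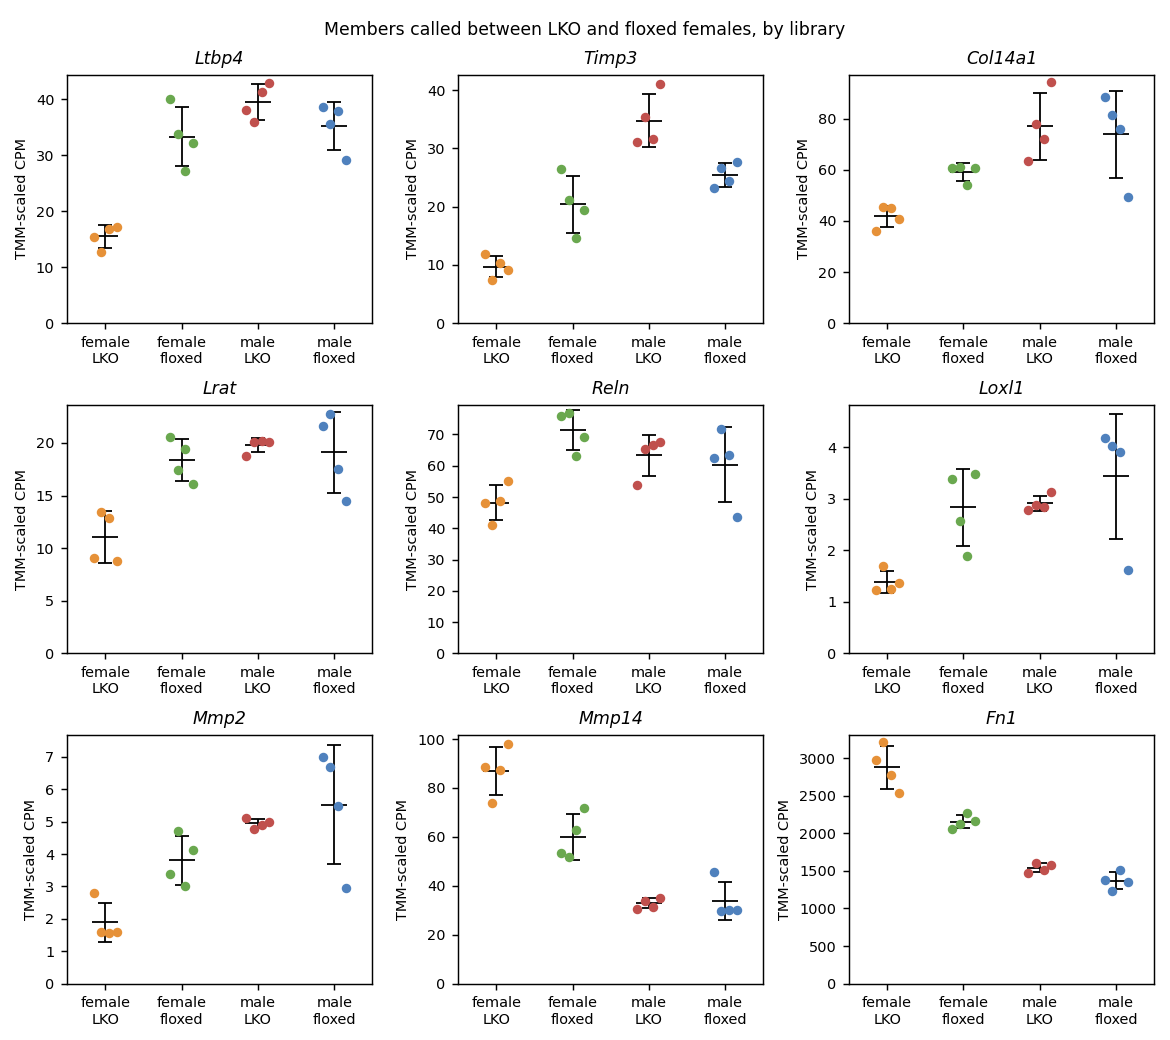
The 9 members called in females, each panel with CPM per library on the y axis (each axis from 0) and the groups female LKO, female floxed, male LKO and male floxed from left to right; dots are livers, bars are the mean ± SD (n = 4). In females LKO and floxed dots do not overlap in any panel, and in males they overlap for every gene but Timp3, where LKO livers lie above floxed livers.

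Ltbp4, the latent TGF-beta binding protein of elastic fibres, was at 15.4, 12.7, 16.8 and 17.1 CPM in LKO females against 39.9, 33.8, 27.1 and 32.1 CPM in floxed females. The highest LKO value was well under the lowest floxed value. The log2 fold change was -1.10 (SE 0.13), a 2.15-fold fall, with an adjusted p of 0.00367 by edgeR. Tgfb1 itself, the ligand that latent complexes hold, did not pass: it was at 12.1, 13.4, 12.8 and 9.83 CPM in LKO females against 14.3, 12.3, 11.6 and 14.8 CPM in floxed females. Its groups overlapped, and its log2 fold change was -0.14 (SE 0.12, adjusted p by edgeR 0.483).

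Among metalloproteinases and their inhibitors, Timp3, an inhibitor that binds to the matrix, was at 11.8, 7.49, 10.3 and 9.19 CPM in LKO females against 26.5, 21.1, 14.6 and 19.5 CPM in floxed females. Every LKO value lay below every floxed value, and the fall was 2.11 fold (log2 -1.08, SE 0.19, adjusted p by edgeR 0.011). Mmp2, a gelatinase that stellate cells secrete, was at 2.81, 1.59, 1.58 and 1.59 CPM in LKO females against 3.39, 4.72, 3.02 and 4.13 CPM in floxed females. LKO 5 alone came near the floxed range, and the fall was 2.02 fold (log2 -1.01, SE 0.24, adjusted p by edgeR 0.0292). Mmp14, the membrane-bound protease that activates Mmp2, moved the other way, at 88.6, 73.9, 87.3 and 98.1 CPM in LKO females against 53.6, 51.8, 62.8 and 71.8 CPM in floxed females. The LKO 6 and floxed 4 livers nearly met, and the rise was 1.45 fold (log2 0.53, SE 0.12, adjusted p by edgeR 0.0286). Timp2 did not pass (log2 -0.29, SE 0.10, adjusted p by edgeR 0.101), although its groups did not overlap. With library totals as the scale it passed at 0.0482 by edgeR. On that scale the median log2 value over all genes was -0.08 in females, against 0.00 on the main scale. Timp1, an inhibitor that activated stellate cells express, had 4 to 18 counts in LKO and 8 to 16 in floxed females, at 0.309, 0.574, 0.179 and 0.122 CPM in LKO against 0.370, 0.291, 0.249 and 0.493 CPM in floxed livers. The Mmp2 call was lost without LKO 6 or 8 or floxed 1 or 2 (adjusted p 0.0653 to 0.0898), and the Mmp14 call without LKO 5 or 8 or floxed 1, 2 or 3 (0.0597 to 0.0875).

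Loxl1, a lysyl oxidase that crosslinks elastin, was at 1.24, 1.69, 1.25 and 1.37 CPM in LKO females against 3.39, 2.56, 1.90 and 3.48 CPM in floxed females. The groups did not overlap, and floxed 3 was the nearest to the LKO livers. The fall was 2.05 fold (log2 -1.03, SE 0.23, adjusted p by edgeR 0.0247), and the call was lost without LKO 5 or 8 or floxed 1 or 2 (0.0569 to 0.0775). Loxl2, which crosslinks collagen IV, did not pass (log2 -0.33, SE 0.21, adjusted p by edgeR 0.333). Lox had 8 to 10 counts in LKO females and 4 to 31 counts in floxed females.

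Of the 7 stellate receptors, factors and markers, Lrat and Reln fell. Lrat, the enzyme that esterifies vitamin A for storage, was at 9.08, 13.5, 12.9 and 8.76 CPM in LKO females against 20.6, 17.5, 19.4 and 16.1 CPM in floxed females. LKO 5 and 8 were the lowest, and no LKO liver reached the floxed range (log2 -0.74, SE 0.15, a 1.67-fold fall, adjusted p by edgeR 0.0205). Reln, which encodes the secreted protein reelin and marks stellate cells in the liver, was at 48.2, 41.1, 48.7 and 55.0 CPM in LKO females against 76.0, 76.8, 63.2 and 69.2 CPM in floxed females. All LKO livers were below all floxed livers, and the fall was 1.48 fold (log2 -0.57, SE 0.10, adjusted p by edgeR 0.0122). The other 5 of the group did not pass. Pdgfrb, the receptor through which platelet-derived growth factor drives stellate proliferation, was at 8.81, 10.7, 7.18 and 8.43 CPM in LKO females against 9.04, 8.21, 8.94 and 12.3 CPM in floxed females. Its groups overlapped (log2 -0.13, SE 0.16, adjusted p by edgeR 0.622). Pdgfra, Hgf (hepatocyte growth factor) and the transcription factors Hand2 and Lhx2 had log2 values of 0.06, -0.17, -0.18 and -0.30, and Lhx2 passed without LKO 7 (log2 -0.48, adjusted p 0.047). The Lrat call was lost without LKO 5 or floxed 1, 2 or 3 (0.0514 to 0.066).

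Col14a1, a collagen that associates with fibrils, was the called collagen in females, at 36.2, 45.3, 44.8 and 40.7 CPM in LKO against 60.6, 60.9, 54.0 and 60.8 CPM in floxed livers. All LKO livers lay under all floxed livers, and the fall was 1.42 fold (log2 -0.50, SE 0.09, adjusted p by edgeR 0.0114). The fibrillar collagens did not pass by edgeR, although all 5 had values below 0 and 4 of them an unadjusted p under 0.05. The share of all genes under that unadjusted threshold is not given here. Col1a1, a chain of type I collagen, was at 4.33, 8.19, 3.64 and 4.18 CPM in LKO females against 6.42, 8.79, 8.82 and 8.88 CPM in floxed females. LKO 6 alone lay above floxed 1, and the log2 fold change was -0.70 (SE 0.24, adjusted p by edgeR 0.0988). Col3a1, which forms type III collagen, was at 15.9, 27.9, 17.4 and 12.5 CPM in LKO females against 27.1, 29.4, 25.05 and 25.5 CPM in floxed females. Here too LKO 6 was the liver in the floxed range (log2 -0.54, SE 0.20, adjusted p by edgeR 0.119). Without LKO 6, Col1a1 passed at an adjusted p of 0.0188 (log2 -1.02) and Col3a1 at 0.0176 (log2 -0.81). On all 8 libraries DESeq2 called Col1a1 (0.0406), and library totals as the scale called Col5a1 (0.0426). Col1a2, the partner chain of Col1a1, was at 13.0, 16.5, 11.4 and 10.4 CPM in LKO females against 16.2, 15.6, 14.9 and 19.3 CPM in floxed females. Its groups overlapped through LKO 6 (log2 -0.37, SE 0.15, adjusted p by edgeR 0.143). Col5a1 and Col5a2, chains of the type V collagen that nucleates fibrils, had log2 values of -0.24 and -0.07, and Col6a1, a chain of the beaded-filament collagen VI, -0.29.

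Fibronectin, which hepatocytes secrete into plasma and stellate cells lay into the matrix, had the highest level of the 38 per kilobase of exon in every group. Fn1 was at 2974, 3209, 2781 and 2539.7 CPM in LKO females against 2062, 2121, 2267 and 2164 CPM in floxed females. The lowest LKO liver, LKO 8, was above the highest floxed liver (log2 0.42, SE 0.11, a 1.33-fold rise, adjusted p by edgeR 0.0475). The Fn1 call was lost without any single library but LKO 7 (0.0565 to 0.129) and with library totals as the scale (0.081). On that scale Mmp14 was not called either (0.0505), and the members split 0 higher and 11 lower. Over all genes it shifted values down as well, with 449 of 1689 called genes higher. Ecm1, a secreted glycoprotein, was at 120.3, 105, 140.0 and 128 CPM in LKO females against 192, 159.6, 144 and 148 CPM in floxed females. The groups did not overlap, and the log2 fold change was -0.39 (SE 0.12, adjusted p by edgeR 0.0645); it passed without LKO 7 (0.0351), by DESeq2 (0.0264), with library totals as the scale (0.034) and in the fit of all 16 libraries (0.0134). Sparc, a collagen-binding matrix protein, was at 37.7, 41.6, 35.9 and 35.4 CPM in LKO females against 46.1, 42.3, 39.0 and 52.9 CPM in floxed females. The groups met at LKO 6 and floxed 3 (log2 -0.26, SE 0.10, adjusted p by edgeR 0.135). The proteoglycans Dcn, Lum and Bgn, the microfibril protein Fbn1 and elastin, Eln, did not pass, with log2 values of -0.05, -0.03, -0.24, -0.32 and -0.58.

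The contractile and filament genes did not pass in females by edgeR. Acta2, smooth muscle actin and the usual label of an activated stellate cell, was at 1.79, 1.12, 3.16 and 1.22 CPM in LKO females against 3.33, 1.40, 2.12 and 4.01 CPM in floxed females. Both groups were widely spread and overlapped (log2 -0.57, SE 0.39, adjusted p by edgeR 0.374). Tagln, which encodes the actin-binding protein transgelin, had a log2 value of -0.64 (SE 0.21, adjusted p by edgeR 0.0782) and was called by DESeq2 (0.0299) and with library totals as the scale (0.0488). The intermediate filament genes Des and Vim had log2 values of 0.09 and -0.16. Exons of Tagln overlap those of Pcsk7, exons of Timp3 those of Syn3, exons of Fn1 those of Apol7d and exons of Reln those of Gm10475, each on the other strand. Exons of Col5a1, Col4a2, Fbn1, Eln, Pdgfra and Hand2 also overlap those of genes with counts on the other strand. The strand setting of the counting is not given in the sources used here.

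**Figure D2:**
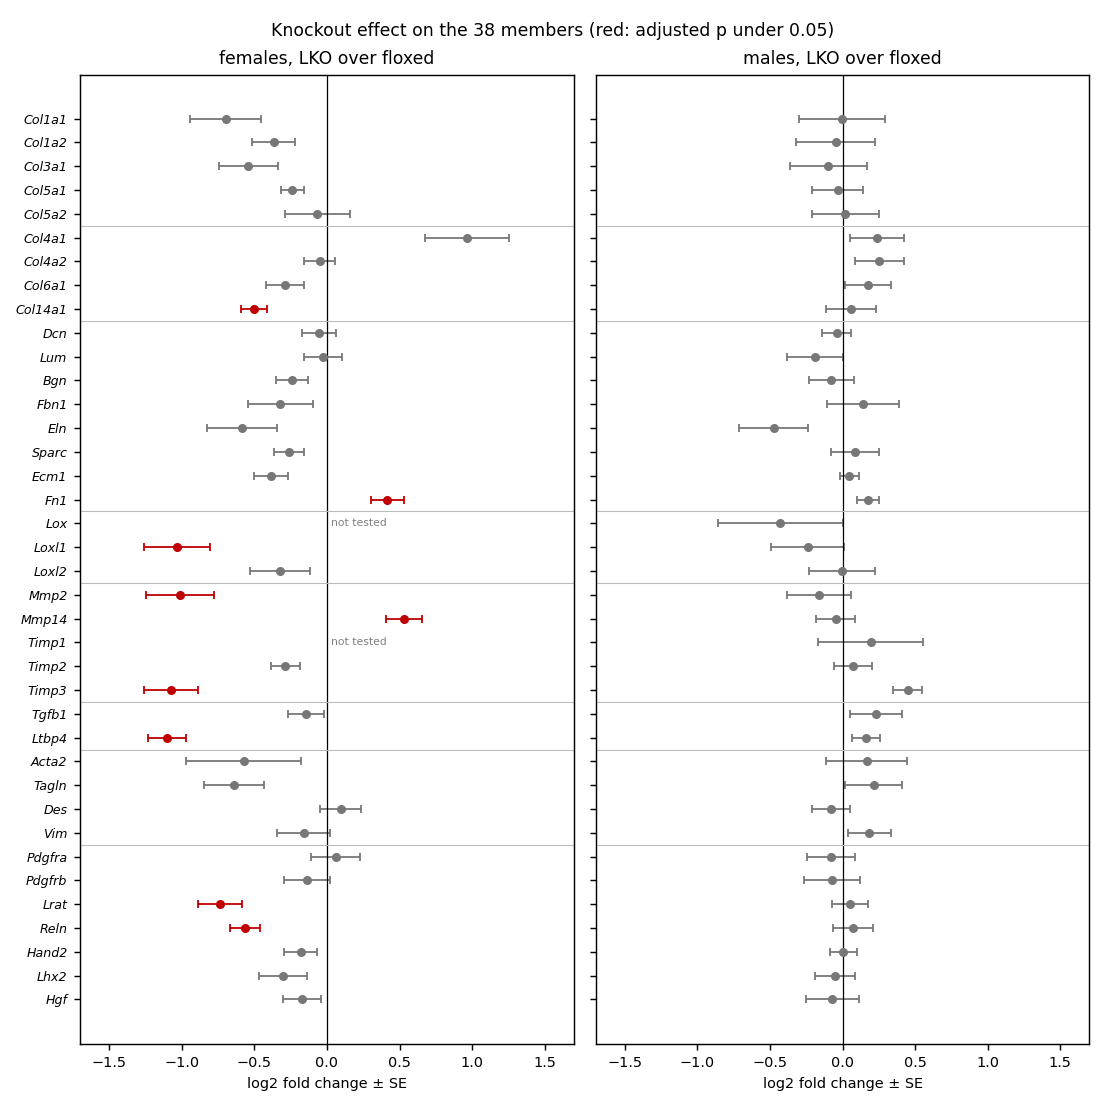
Log2 fold change of LKO over floxed livers for each of the 38 members, females in the left panel and males in the right, with bars of ± 1 SE and red for calls at an adjusted p under 0.05 by edgeR. Female values lie left of 0 for 31 of 36 members and 9 are red, and no male value is red; Lox and Timp1 were not tested in females.

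In males no member passed, where 1.04% of all 15355 genes tested were called (0.514% lower and 0.528% higher). Of the 38 members, 2 had an unadjusted p under 0.05 by edgeR, and the share of all genes under that threshold is not given here. DESeq2 called 1 member (Timp3) and 518 of the 15355 genes. With limma-voom 0 members and 155 genes were called. The median log2 fold change over the members was 0.01, against -0.01 over all genes, and 20 of 38 members had a value above 0. Timp3 was at 31.2, 35.3, 31.5 and 41.0 CPM in LKO males against 23.2, 26.7, 24.4 and 27.7 CPM in floxed males. All LKO males lay above all floxed males, the only member with such a split, which 3.92% of all genes showed; no member had all LKO males below all floxed males, which 4.14% of all genes showed (log2 0.45, SE 0.10, adjusted p 0.0693 by edgeR and 0.00329 by DESeq2). Ltbp4 was at 38.05, 35.8, 41.3 and 42.9 CPM in LKO males against 38.5, 35.5, 37.9 and 29.1 CPM in floxed males. The groups overlapped (log2 0.16, SE 0.10, adjusted p by edgeR 0.541). Lrat was at 18.8, 20.04, 20.2 and 20.1 CPM in LKO males against 21.6, 22.7, 17.5 and 14.5 CPM in floxed males, with the LKO livers inside the floxed range (log2 0.05, SE 0.12). Fn1 was at 1475, 1608, 1514 and 1579 CPM in LKO males against 1385, 1230.3, 1507 and 1349.7 CPM in floxed males, with overlap at LKO 5 and floxed 3 (log2 0.17, SE 0.07, adjusted p by edgeR 0.372).

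Levels of the type I and III collagens ranged widely among floxed males. Col1a1 was at 28.3, 29.9, 35.3 and 45.2 CPM in LKO males against 51.5, 39.4, 33.0 and 15.04 CPM in floxed males. The lowest and the highest liver of the 8 were both floxed, and the log2 fold change was 0.00 (SE 0.30). Col3a1 showed the same order among floxed males, at 79.0, 67.9, 72.8 and 99.2 CPM in LKO males against 126, 93.7, 80.8 and 41.4 CPM in floxed males (log2 -0.10, SE 0.27). Col1a2 was at 38.1, 34.9, 34.7 and 53.5 CPM in LKO males against 58.9, 47.8, 40.0 and 19.9 CPM in floxed males (log2 -0.05, SE 0.27). Across the 38 members, LKO 8 was the highest LKO male for 31, floxed 1 the highest floxed male for 29 and floxed 4 the lowest floxed male for 28. Over all genes those libraries held the same place for 24.995%, 26.9% and 26.8%. In females, floxed 4 was the highest floxed liver for 24 members and floxed 3 the lowest for 20, against 30.6% and 22.0% of all genes. The activation labels did not pass in males either. Acta2 was at 2.03, 1.81, 1.95 and 3.08 CPM in LKO males against 2.49, 1.72, 1.13 and 2.60 CPM in floxed males. Timp1 was at 1.16, 0.967, 0.804 and 1.76 CPM in LKO males against 1.83, 0.769, 0.770 and 0.728 CPM in floxed males. Both overlapped, with log2 values of 0.17 (SE 0.28) and 0.19 (SE 0.36). Pdgfrb was at 8.83, 9.88, 11.04 and 13.2 CPM in LKO males against 14.5, 10.7, 12.7 and 7.38 CPM in floxed males. Tgfb1 was at 10.9, 9.34, 10.02 and 14.1 CPM in LKO males against 12.1, 9.85, 6.76 and 9.21 CPM in floxed males. Neither separated the genotypes (log2 -0.08, SE 0.19, and 0.23, SE 0.18). Eln had a male log2 value of -0.47 (SE 0.24), Lox of -0.43 (SE 0.43), Loxl1 of -0.24 (SE 0.25) and Mmp2 of -0.16 (SE 0.22). Among Col5a1, Col5a2, Col6a1, Dcn, Lum, Bgn, Fbn1, Sparc, Ecm1, Loxl2, Mmp14, Timp2, Tagln, Des, Vim, Pdgfra, Hand2, Lhx2 and Hgf, male log2 values ran from -0.19 for Lum (SE 0.19) to 0.21 for Tagln (SE 0.20).

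**Figure D3:**
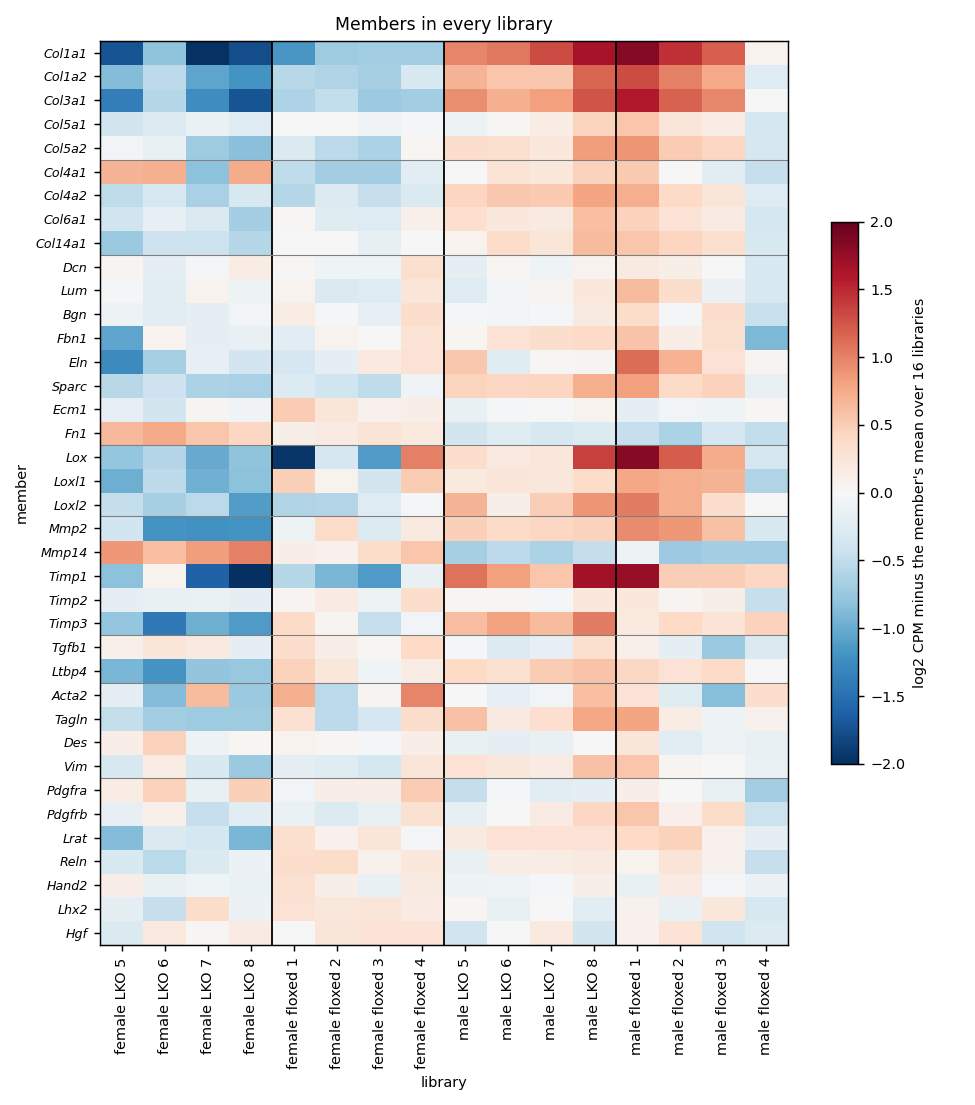
Level of each of the 38 members (rows, by role) in each of the 16 libraries (columns, female LKO, female floxed, male LKO and male floxed), drawn as log2 CPM minus the member's mean over the 16 libraries, with red above and blue below that mean and colours ending at 2. Col1a1, Col1a2 and Col3a1 are blue in female livers and red in male livers other than floxed 4, floxed 1 and floxed 4 stand out among male livers, and Ltbp4, Timp3 and Lrat are bluest in female LKO livers.

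The knockout effect differed between the sexes for 3 members. The female effect minus the male effect, on the log2 scale, was -1.52 for Timp3 (SE 0.22, adjusted p by edgeR 0.00325). It was -1.26 for Ltbp4 (SE 0.17, adjusted p by edgeR 0.00235) and -0.78 for Lrat (SE 0.21, adjusted p by edgeR 0.0457). The test was 1 edgeR fit of the 16 libraries, in which 4.42% of 16126 genes were called. All 3 were female effects below male effects, as were 2.45% of all genes, while 1.97% had the opposite difference. For Timp3 the signs were opposite, with LKO livers lower in females and higher in males, while Ltbp4 and Lrat had male values of 0.16 and 0.05. Reln had a difference of -0.63 (SE 0.18, adjusted p by edgeR 0.058) and Col14a1 of -0.56 (SE 0.21, adjusted p by edgeR 0.14). Reln was at 53.7, 65.4, 66.5 and 67.7 CPM in LKO males against 62.4, 71.6, 63.6 and 43.5 CPM in floxed males. Col14a1 was at 63.5, 77.9, 72.0 and 94.3 CPM in LKO males against 88.5, 81.4, 75.9 and 49.2 CPM in floxed males. Neither separated the male genotypes. Reln passed by DESeq2 (-0.64, adjusted p 0.0194) and with library totals as the scale (adjusted p 0.0391), as did Ecm1 (0.0406 by DESeq2 and 0.0344 with library totals). With library totals the median difference over all genes was -0.06, and 203 of 901 called genes were higher. In the main fit the median difference was -0.33 over the members and 0.01 over all genes. The Lrat call was lost without any male LKO library, without male floxed 3 or 4, without female LKO 5 or 8 and without female floxed 1, 2 or 3 (adjusted p 0.0662 to 0.0948), and Reln passed without male LKO 5, male floxed 2 or female LKO 8 (0.0411 to 0.0494). Without female LKO 7, 5 members were called, where 1435 of all genes were called against 713 in the main fit. Ecm1 passed without that liver (0.0289), Mmp14 without female floxed 4 (0.0432) and Tagln without male floxed 1 (0.043).

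Averaged over both sexes, Fn1 rose and Ltbp4, Loxl1 and Mmp2 fell in LKO livers. The log2 values were 0.30 for Fn1 (SE 0.06, adjusted p by edgeR 0.00999) and -0.47 for Ltbp4 (SE 0.08, adjusted p by edgeR 0.00404). They were -0.64 for Loxl1 (SE 0.18, adjusted p by edgeR 0.0381) and -0.59 for Mmp2 (SE 0.17, adjusted p by edgeR 0.0433). The 4 calls stand among 38 members tested, where 8.55% of all genes were called (4.5% lower and 4.05% higher). Ltbp4 differed between the sexes, so its average joins unlike effects. In males, Loxl1 was at 2.79, 2.87, 2.85 and 3.13 CPM in LKO against 4.18, 4.03, 3.91 and 1.61 CPM in floxed livers, where floxed 4 alone lay below the LKO livers. Mmp2 was at 5.11, 4.78, 4.89 and 5.004 CPM in LKO males against 7.01, 6.68, 5.48 and 2.94 CPM in floxed males, again with floxed 4 alone below. Without male floxed 4, 7 members were called, the 4 above with Col14a1, Lrat and Reln. Over all genes that fit called 1135, against 1379 in the main fit. Only Fn1 and Ltbp4 were called without any 1 male LKO library, male floxed 2 or 3, female LKO 8 or female floxed 1 or 2. Calls gained without a single library were those of Col4a1 (male floxed 1, female LKO 7 or female floxed 4, adjusted p 0.00139 to 0.0432), Mmp14 (male floxed 1, 0.0167), Eln (female LKO 7, 0.0382), Lrat (female LKO 6 or 7 or female floxed 4, 0.0279 to 0.0358) and Timp3 (female floxed 3, 0.0345). DESeq2 also called Col4a1 (0.015), Eln (0.0371) and Lrat (0.0266), and library totals called Lrat (0.0389), while limma-voom did not call Loxl1 (0.0862) or Mmp2 (0.0679).

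Col4a1 and Col4a2, the chains that form the collagen IV network of basement membranes, parted in LKO females; this pair was singled out after its values were seen. Col4a1 was at 68.3, 69.7, 24.1 and 71.0 CPM in LKO females against 29.9, 26.3, 26.5 and 36.6 CPM in floxed females. LKO 5, 6 and 8 lay far above every floxed liver, and LKO 7 lay below every floxed liver. The log2 fold change was 0.97 (SE 0.29) and did not pass at an adjusted p of 0.0649 by edgeR. Without LKO 7 it was 1.23 (SE 0.12, adjusted p by edgeR 0.000767), and on all 8 libraries DESeq2 gave 0.00923 and edgeR with no filter 0.0453; the fit of all 16 libraries gave 0.022. Col4a2 was at 14.2, 16.1, 12.9 and 16.2 CPM in LKO females against 13.6, 16.6, 14.6 and 16.5 CPM in floxed females. Its groups overlapped throughout (log2 -0.05, SE 0.11, adjusted p by edgeR 0.798). The ratio of Col4a1 to Col4a2 CPM was 4.82, 4.32, 1.87 and 4.39 in LKO females against 2.20, 1.58, 1.82 and 2.21 in floxed females. It was 1.55, 1.75, 1.699 and 1.68 in LKO males against 1.84, 1.59, 1.51 and 1.83 in floxed males, so 3 LKO females stood apart from the other 13 livers. In males Col4a1 was at 42.0, 51.6, 49.0 and 58.5 CPM in LKO against 61.2, 42.4, 36.3 and 30.8 CPM in floxed livers. Col4a2 was at 27.0, 29.4, 28.9 and 34.9 CPM in LKO males against 33.3, 26.7, 24.0 and 16.8 CPM in floxed males. Neither gene separated the male genotypes (log2 0.24, SE 0.19, and 0.25, SE 0.17). The female effect on Col4a1 exceeded the male effect by 0.73 (SE 0.38, adjusted p by edgeR 0.289), and by 0.99 without female LKO 7 (adjusted p 0.0215). Exons of the 2 genes overlap on opposite strands at their shared start, where reads may be assigned to either.

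**Figure D4:**
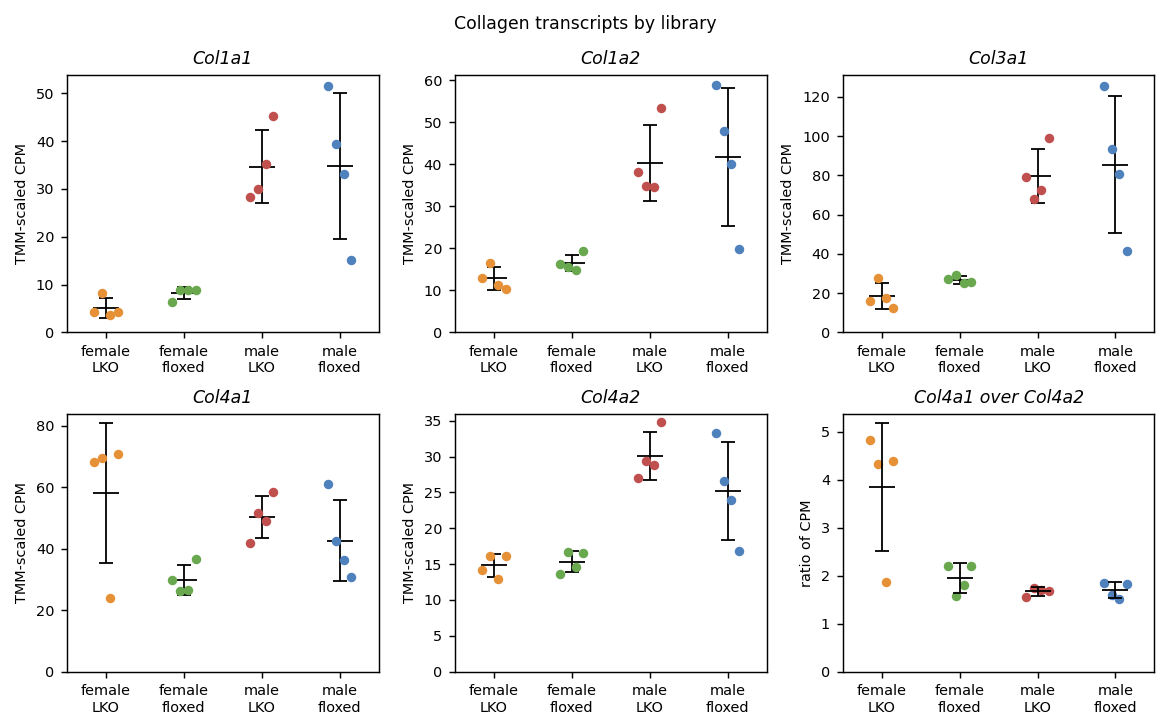
CPM per library of Col1a1, Col1a2, Col3a1, Col4a1 and Col4a2, and the ratio of Col4a1 to Col4a2, in female LKO, female floxed, male LKO and male floxed livers from left to right; dots are livers, bars are the mean ± SD (n = 4). Type I and III collagens are higher in males than in females and overlap between genotypes, while Col4a1 and the ratio are high in 3 of 4 female LKO livers.

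Between the floxed groups, 8 members were lower and 4 higher in females than in males. Of the fibrillar collagens, Col1a1 was lower by 4.22 fold, Col3a1 by 3.19 fold and Col1a2 by 2.53 fold. The 12 calls among 38 members stand beside 22.9% of all genes (11.6% lower and 11.3% higher in females), and the sexes were deposited as separate tables, so sex and table cannot be told apart. From the female and male values above, every floxed female lay below every floxed male for Col1a1 (log2 -2.08, SE 0.31, adjusted p by edgeR 0.000211), Col3a1 (log2 -1.67, SE 0.27, adjusted p by edgeR 0.000406) and Col1a2 (log2 -1.34, SE 0.25, adjusted p by edgeR 0.00119). In 6 members floxed females lay wholly below floxed males, as did 12.5% of all genes, and in 3 wholly above, as did 11.6%.

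The other members lower in floxed females were Col4a2, Sparc, Loxl2, Col5a2 and Timp1. Col4a2 was 1.64 fold lower (log2 -0.72, SE 0.15, adjusted p by edgeR 0.00358), with no overlap. Sparc was at 46.1, 42.3, 39.0 and 52.9 CPM in floxed females against 98.0, 72.5, 76.7 and 50.05 CPM in floxed males. The overlap came from male floxed 4 (log2 -0.72, SE 0.15, adjusted p by edgeR 0.00281). Loxl2 was at 1.91, 1.95, 2.43 and 2.84 CPM in floxed females against 5.92, 4.80, 3.73 and 2.91 CPM in floxed males. The lowest male and the highest female nearly met (log2 -0.93, SE 0.22, adjusted p by edgeR 0.00728). Col5a2 was at 3.82, 3.26, 3.02 and 4.81 CPM in floxed females against 8.67, 6.68, 6.25 and 3.70 CPM in floxed males, with overlap through male floxed 4 (log2 -0.76, SE 0.24, adjusted p by edgeR 0.0314). Timp1 differed by -1.54 (SE 0.43, adjusted p by edgeR 0.0165) with 8 to 16 counts in floxed females and 23 to 64 in floxed males, and the call was lost without male floxed 1 (log2 -1.11, adjusted p 0.0654).

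Fn1, Mmp14, Ecm1 and Tgfb1 were higher in floxed females. Fn1 was 1.57 fold higher (log2 0.65, SE 0.09, adjusted p by edgeR 9.87e-05), with every female above every male. Mmp14 was at 53.6, 51.8, 62.8 and 71.8 CPM in floxed females against 45.6, 29.5, 30.3 and 30.2 CPM in floxed males. Male floxed 1 was the nearest to the females (log2 0.82, SE 0.14, adjusted p by edgeR 0.000551). Ecm1 was at 192, 159.6, 144 and 148 CPM in floxed females against 119.8, 129.6, 127 and 137 CPM in floxed males, without overlap (log2 0.33, SE 0.10, adjusted p by edgeR 0.0228). Tgfb1 had a log2 difference of 0.49 (SE 0.16, adjusted p by edgeR 0.0402), with overlap between the sexes. The stellate receptors, factors and markers among the members did not pass by edgeR, from -0.24 for Pdgfrb to 0.34 for Pdgfra. Of the 26 members that did not pass, Lox had the lowest log2 difference (-1.245, SE 0.51) and Acta2 the highest (0.45, SE 0.36). Without male floxed 1 and 2 together, whose mouse numbers lie apart, Col1a1, Col1a2, Col3a1, Sparc, Fn1, Mmp14 and Tgfb1 were called, 7 in all. Over all genes that fit called 2555, against 3698 in the main fit. Single libraries ended the calls of Col5a2 (male floxed 1, 2 or 3, or female floxed 1, 2 or 3, adjusted p 0.0577 to 0.0994), Ecm1 (male floxed 1 or 3, or female floxed 1, 0.0536 to 0.0873) and Tgfb1 (male LKO 5, male floxed 2, 3 or 4, or female floxed 1, 2 or 4, 0.0522 to 0.119). Without male floxed 4, Col14a1, Mmp2 and Lox were also lower in females (0.00945 to 0.0417), as were Lox without female floxed 4 (0.0112), Col4a1 without female LKO 7 (0.0353) and Timp3 without female floxed 1 (0.0382). Markers of liver cell types are given beside the 22.9% of all genes called between floxed groups, 11.6% lower and 11.3% higher in females. Of 19 stellate cell markers outside the members 6 were higher and 0 lower in floxed females, among them Cxcl12 (log2 0.81), Bco1 (log2 0.94), Hhip (log2 0.78) and Cygb (log2 0.37), and 18 of 19 had a value above 0. Their summed level was 1005 to 1172 CPM in floxed females and 720.5 to 818 CPM in floxed males. In such a sum the most abundant genes weigh most. The type I and III collagens were lower in floxed females. Of 15 Kupffer cell and macrophage markers 10 were higher and 2 lower in floxed females, at a sum of 899 to 1329 CPM in floxed females and 362 to 536 CPM in floxed males. Of 9 portal fibroblast markers tested 2 were higher (Gas6 and Thy1) and 1 lower (Entpd2), at a sum of 160.3 to 232 CPM in floxed females and 76.6 to 106 CPM in floxed males. Of 13 sinusoidal endothelial markers 1 was higher and 1 lower, of 7 cholangiocyte markers tested 1 was higher and 1 lower, and of 10 hepatocyte markers 0 were higher and 2 lower. No smooth muscle or mesothelial marker passed by edgeR, where 0 of 5 and 1 of 5 had an unadjusted p under 0.05. The part of these cell populations in the sex difference was not tested.

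Other genes of the same pathways in females are given by count from lists chosen by function, beside the 4.85% of all genes that fell and 4.44% that rose. Among 12 other collagens 3 fell: Col27a1 (log2 -1.81, SE 0.31), Col6a3 (log2 -0.86, SE 0.13) and Col13a1 (log2 -0.79, SE 0.18), with a median of -0.20 over the list. Of 15 genes of collagen folding and processing 1 rose, P3h1, a collagen prolyl hydroxylase (log2 0.54, SE 0.12), and the median was 0.15. In the TGF-beta list 2 of 24 tested genes fell, the co-receptor Eng (log2 -0.41, SE 0.10) and the inhibitor Smad6 (log2 -0.55, SE 0.15), with a median of -0.20. None of 9 PDGF and HGF signalling genes passed by edgeR, where 2 had an unadjusted p under 0.05. Of 26 tested matrix glycoproteins and degrading enzymes 3 fell: the elastase Mmp12 (log2 -1.78, SE 0.24), the microfibril protein Mfap4 (log2 -1.13, SE 0.25) and perlecan, Hspg2 (log2 -0.62, SE 0.08). These calls have adjusted p-values by edgeR of 0.0051 to 0.0487, and the medians stand beside 0.00 over all genes. In males none of these 5 lists held a call by edgeR, with 0 to 2 genes per list at an unadjusted p under 0.05.

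Markers of other liver cells moved in the same female comparison. Of 13 sinusoidal endothelial markers 9 fell and 0 rose in LKO females, where 4.85% of all genes fell and 4.44% rose. Among those that fell were Flt4 (log2 -0.82), Oit3 (log2 -1.001), Fcgr2b (log2 -0.97) and Clec4g (log2 -0.57). The female effect was below the male effect for 12 of 13. The test of that difference called 7 of 13 as lower, against 2.45% of all genes. The summed level of the 13 markers was 231 to 304 CPM in LKO females against 334 to 355 CPM in floxed females. It was 354 to 410 CPM in LKO males against 272 to 378 CPM in floxed males. Stellate cell markers outside the members mostly did not pass: 1 of 19 fell, the transcription factor Tcf21 (log2 -0.59). Of the 19, 13 had log2 values below 0 and 5 an unadjusted p under 0.05 by edgeR. The share of all genes under that unadjusted threshold is not given here, so such counts do not set a list apart. The list median was -0.16, against 0.00 over all genes. The summed level of these markers was 953 to 1426 CPM in LKO females against 1005 to 1172 CPM in floxed females. Portal fibroblast markers fell for 2 of 8 tested, Mgp (log2 -1.25) and Dpt (log2 -0.97), with a summed level of 121 to 233 CPM in LKO females against 160.3 to 232 CPM in floxed females. Of 4 smooth muscle markers tested 1 fell, Mylk (log2 -0.54), and the sum was 111 to 124 CPM in LKO females against 146 to 193 CPM in floxed females. None of 5 mesothelial markers passed by edgeR, where 1 had an unadjusted p under 0.05, and their sum was 2.71 to 4.05 CPM in LKO females against 4.11 to 7.18 CPM in floxed females. None of 15 Kupffer cell and macrophage markers passed by edgeR either, where 3 had an unadjusted p under 0.05, at a sum of 1011 to 1520.1 CPM in LKO females against 899 to 1329 CPM in floxed females. Of 7 cholangiocyte markers tested 1 rose (Tm4sf4, log2 0.66) and 1 fell (Epcam). The 6 tested markers besides Tm4sf4 had log2 values below 0 (list median -0.21), although the summed level did not overlap and was higher in LKO females, at 187 to 226 CPM in LKO females against 143 to 169 CPM in floxed females. Of 10 hepatocyte markers 2 rose (Tat and Hnf4a) and 2 fell (Alb and Ttr). Values were above 0 for 7 of the 10 (list median 0.26), although the summed level was lower in LKO females. That sum was 42758 to 62162 CPM in LKO females against 69228 to 79375 CPM in floxed females. Spp1 stands in both the macrophage and the cholangiocyte list, and no cell marker was at 0 in a whole group. The part of these cell populations in the members' changes was not tested.

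**Figure D5:**
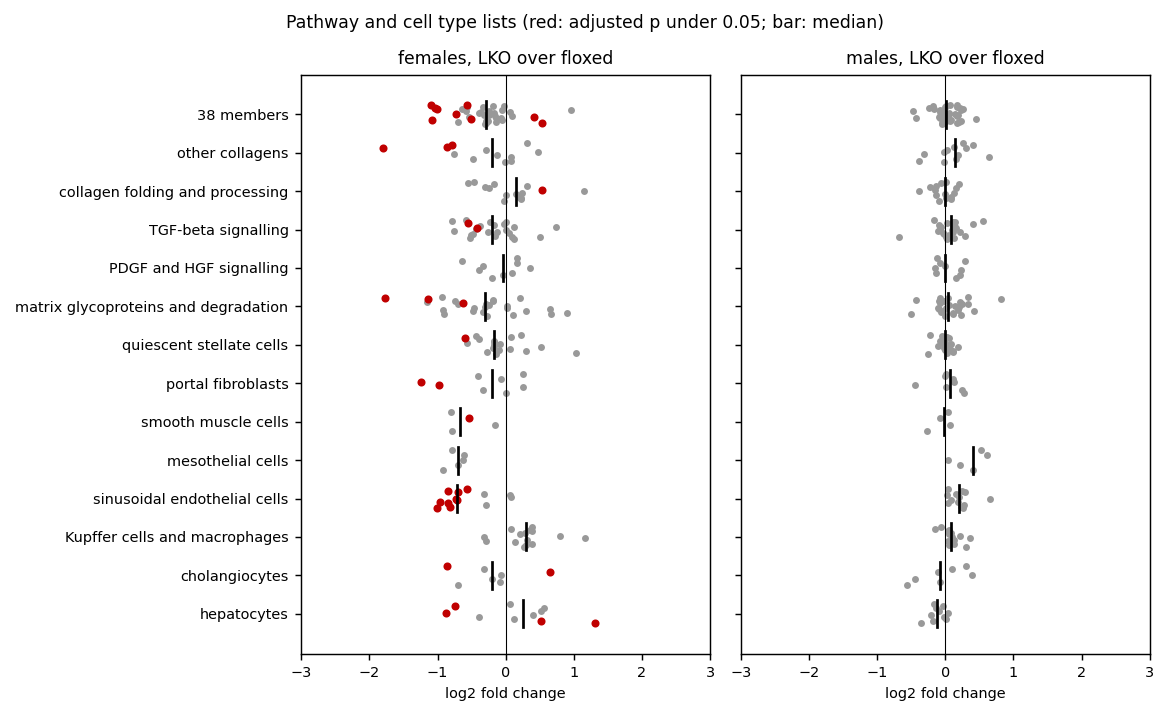
Log2 fold change of LKO over floxed livers for the 38 members and for each gene of the pathway and cell marker lists, females in the left panel and males in the right; a dot is a gene, red marks an adjusted p under 0.05 by edgeR, and the bar is the median of the list. Of the sinusoidal endothelial markers 9 of 13 are red and left of 0 in females, and no gene is red in males.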

How the data were processed

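Liver RNA of 16 mice was sequenced from directional poly(A) libraries, per the labels' protocols. The authors deposited counts of reads per gene, raw and whole, in 1 table for each sex. The submitters' processing notes name build mm10, and the aligner, the counting program and its strand setting are not given in the sources used here. Columns were matched to samples by mouse number, and groups come from the labels. Totals ran from 30495505 to 36496193 counts per library.

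The main test was edgeR's quasi-likelihood F-test (edgeR 4.0.16 in R 4.3.3) with TMM scaling and a filter on low counts (minimum count 10, minimum total 15), fitted per sex for the knockout effect, and over all 16 libraries and the 23167 identifiers in both tables for the difference, the average and the comparison of floxed groups. P-values were adjusted by Benjamini-Hochberg over all genes tested. For an unadjusted p under 0.05 the share of all genes is not given, so those counts do not set a list or the members apart. All 38 members are accounted for. Values per library are given for Ltbp4, for each member called in any comparison, and for Col1a1, Col1a2, Col3a1, Acta2, Timp1, Tgfb1, Lrat and Pdgfrb; those of Col4a1 and of other members were added after the values were seen. Of the other lists, up to 4 genes were named by smallest p. The members and lists were chosen with earlier results of these data known. Levels per kilobase use GENCODE M21 exon lengths. DESeq2 1.42.0, limma-voom (limma 3.58.1), other scalings and filters, and fits without single libraries were alternatives. The procedure was also run on simulated counts with the same spread for every gene. The outcome of that run is not given here and does not measure how the procedure performs on these livers. No 2 libraries were copies (lowest chi-square per degree of freedom between libraries of a group 13.7). Each library is labelled as a separate mouse, so p-values measure the spread between mice.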

Additional observations from a re-analysis of the deposited data

Results flagged for a closer look

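In 15 of the 152 sets of 4 livers (38 members in 4 groups), 1 liver lay far from the other 3, where chance flags about 1 in 20. In LKO females, Col1a1 was at 8.19 CPM in LKO 6 against 3.64 to 4.33 in the others, and Col4a1 at 24.1 CPM in LKO 7 against 68.3 to 71.0. Mmp2 was at 2.81 CPM in LKO 5 against 1.58 to 1.59, and Tagln at 4.48 CPM in the same liver against 3.81 to 3.86. In floxed females, Col1a1 was at 6.42 CPM in floxed 1 against 8.79 to 8.88, Hgf at 6.48 CPM in the same liver against 7.63 to 7.76, and Col14a1 at 54.0 CPM in floxed 3 against 60.6 to 60.9.

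In LKO males, LKO 8 was high for Bgn (88.4 CPM against 74.7 to 76.0), Sparc (90.7 against 74.2 to 75.5) and Lox (1.24 against 0.544 to 0.61), and LKO 5 was low for Lrat (18.8 against 20.04 to 20.2) and Reln (53.7 against 65.4 to 67.7). In floxed males, floxed 4 was low for Loxl1 (1.61 CPM against 3.91 to 4.18), and floxed 1 was high for Mmp14 (45.6 against 29.5 to 30.3) and Timp1 (1.83 against 0.728 to 0.77).

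The knockout effect differed between the sexes, by the test of the difference itself in edgeR, for Timp3 (-1.52 on the log2 scale, female minus male), Ltbp4 (-1.26) and Lrat (-0.784).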

How the results depend on the processing

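No called member changed direction under any alternative. Over single members, 3830 alternative values kept their side of the threshold, 98 lost a call and 63 gained one. In females 9 members were called, against 13 by DESeq2 (3 higher and 10 lower), 11 in the fit of all 16 libraries, 11 with library totals (0 higher and 11 lower), 10 with no filter and 4 to 12 when 1 library was left out; Col14a1, Ltbp4, Reln and Timp3 were called in all 16 alternatives. Over all genes the female calls were 1433 in the main fit and 2415 by DESeq2. They were 2854 in the fit of all 16 libraries, 1689 with library totals (449 higher) and 1447 with no filter. When 1 library was left out they ran from 396 to 2300. In males DESeq2 called 1 member and 518 of all genes, against 160 genes in the main fit. When any 1 library was left out, 0 members were called. For the sex difference, 3 members were called, against 5 with library totals, 5 by DESeq2, 2 to 5 without 1 library, and 6 without female floxed 4 and female LKO 7 together, an alternative chosen after seeing the data; Ltbp4 and Timp3 were called in all 25 alternatives. Over both sexes 4 were called, against 7 by DESeq2, 2 by limma-voom and 2 to 7 without 1 library. Over all genes this average called 1379 in the main fit, 2044 by DESeq2 and 1339 by limma-voom. For the sex difference the totals over all genes were 713 in the main fit, 1358 by DESeq2 and 901 with library totals. Between floxed groups 12 were called, against 7 without male floxed 1 and 2 and 9 to 14 without 1 library. The cause was not tested.

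The replicate numbers in the titles do not pair the sexes: same-numbered libraries had correlations of -0.119 to 0.13 in their deviations, and 2 of 8 correlated best with their own number. With the number as a replicate block, 3 members were called for the sex difference. Between floxed groups 7 were called in a blocked fit of the floxed libraries alone, over 15415 genes. The main fit held all 16 libraries, so the block and the smaller set of libraries cannot be told apart there. Within a sex no paired analysis was possible because LKO and floxed mice share no replicate number.

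Over all genes, calls ranged from 396 to 3028 around 1433 in females and from 69 to 518 around 160 in males. For the sex difference they ranged from 243 to 2030 around 713, the highest without female floxed 4 and female LKO 7 together. Averaged over both sexes they ranged from 788 to 2902 around 1379, and between floxed groups from 2177 to 4177 around 3698. The 2177 came from the blocked fit of the floxed libraries alone. Lox and Timp1 were under the filter on low counts in the female fit and were tested in the other comparisons.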
